A study of Mus musculus with 6 samples.

Results

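To examine whether loss of ATP citrate lyase (*Acly*) altered the baseline expression of genes that mark IL-4-type (alternative, M2) macrophages, 10 alternative activation genes were followed in the RNA-seq counts of unstimulated bone marrow-derived macrophages (BMDMs). They were chosen by name as a receptor, transcription factors and markers of IL-4 polarization, with earlier results of these data known. They are 10 of the 24562 gene symbols in the deposited table. The 9 described here are *Il4ra*, *Stat6*, *Irf4*, *Pparg*, *Mrc1*, *Mgl2*, *Clec10a*, *Chil3* and *Retnla*. Macrophages were grown in L929-conditioned medium from bone marrow of mice (female in the series' design text, whereas the study's methods name both sexes for its in vitro work) and were labelled naive, that is, no IL-4, LPS or other stimulus was added. Control macrophages (labelled WT, 3 libraries) carried a loxP-flanked *Acly* without Cre (Acly fl/fl), and AclyM-KO macrophages (3 libraries) carried the same floxed gene together with Cre driven from the lysozyme M locus (*Lyz2*), which deletes in the myeloid lineage as a whole and not in macrophages alone. In the study's own description the sequencing replicates are technical ones made from a pool of mice, and the standard errors and p-values below measure the spread between these libraries and not between mice.

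In alternative activation, IL-4 or IL-13 binds a receptor that contains the IL-4 receptor α chain, Janus kinases phosphorylate STAT6, and STAT6 dimers enter the nucleus and bind palindromic sites in target genes. Further factors such as IRF4 and PPARγ then help to sustain the program, which in mouse macrophages includes the mannose receptor, galactose-type lectins, the chitinase-like protein Ym1 and the secreted protein RELMα. Without added IL-4 or IL-13 the strongly inducible members of the program are known to be low, whereas the receptor, STAT6 and several of the lectins are present in resting macrophages. The counts thus describe the resting state from which such activation would start.

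STAT6-type sites were looked for in the promoters, because *Retnla* and *Chil3* are textbook STAT6 targets. RefSeq promoter sequences of GRCm38.p6, each 300 bases long with 250 bases before and 50 after the gene start, held a window for 8 of the 10 genes, and *Clec10a* had none. The palindrome TTCNNNNGAA, with a spacer of 4 bases as STAT6 prefers, lay in 1 of these genes, *Retnla*, and the palindrome TTCNNNGAA, with the 3-base spacer of other STAT proteins, in *Chil3*. For comparison, TTCNNNNGAA occurred in 6.95% and TTCNNNGAA in 8.30% of all 32851 promoters of this length. Both palindromes read the same on either strand. The direct repeat AGGTCANAGGTCA, bound by PPAR and RXR, was searched on both strands, lay in 0.0396% of all promoters and was in none of the 8 genes. The 250 bases upstream of *Retnla* (chr16:48842359-48842608, plus strand) and of *Chil3* (chr3:106167565-106167814, minus strand) follow 5′ to 3′, with the match in capitals, since these are the promoters of the 2 members in which a STAT palindrome was found.
Retnla: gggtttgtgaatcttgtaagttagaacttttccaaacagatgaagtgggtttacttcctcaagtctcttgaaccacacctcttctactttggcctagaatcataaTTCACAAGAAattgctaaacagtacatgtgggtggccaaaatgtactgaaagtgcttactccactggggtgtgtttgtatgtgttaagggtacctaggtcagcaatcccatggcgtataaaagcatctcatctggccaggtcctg
Chil3: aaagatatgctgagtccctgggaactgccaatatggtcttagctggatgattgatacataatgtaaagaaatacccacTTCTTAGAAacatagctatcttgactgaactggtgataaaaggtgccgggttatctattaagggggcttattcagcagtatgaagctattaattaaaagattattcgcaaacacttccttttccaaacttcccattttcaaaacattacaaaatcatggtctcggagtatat
The match in *Retnla*, TTCACAAGAA, had its first base at -145 relative to the gene start (chr16:48842464-48842473), and the match in *Chil3*, TTCTTAGAA, had its first base at -172 (chr3:106167728-106167736). These matches describe the letters of the windows and carry no evidence of binding.

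The libraries held between 19327459 and 44507233 counts over all transcripts, of which AclyM-KO replicate 2 had the most and no other library more than 23582992. CPM values below, that is, counts scaled to a common library size, use totals adjusted by edgeR's TMM method, log2 fold changes are AclyM-KO minus control, and a gene was called at an adjusted p of 0.05 or less in a quasi-likelihood test (edgeR, Benjamini-Hochberg over 11470 genes). *Acly* itself had 2424, 3117 and 2614 counts in control replicates 1, 2 and 3 and 1072, 2617 and 1127 in AclyM-KO replicates 1, 2 and 3, of which the second is the deepest, and fell by 57.8% in mean CPM (log2 fold change -1.25, adjusted p = 5.58e-07). Macrophage markers were abundant in every library, with *Adgre1*, *Cd68* and *Itgam* not called, although the summed CPM of 8 markers was 21672 to 22659 in control and 12656 to 15295 in AclyM-KO libraries. Without *Lyz2*, whose locus carries the Cre, the sums were 8624 to 8823 and 7050 to 8315, and *Csf1r* (-0.48, adjusted p = 0.0391) and *Mertk* (-0.67, adjusted p = 0.00202) were the other markers that fell.

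Of the 10 alternative activation genes, 9 had enough counts to be tested, and 1 of these 9 (11.1%) was called, *Clec10a*, which was lower in AclyM-KO macrophages. Over all genes tested, 12.3% were called, 6.7% higher and 5.65% lower, so the share among these genes was close to that of the whole table. Scaling to total counts alone gave 919 higher and 508 lower calls in place of 768 and 648. None of the 9 was called higher, and 2 of the 9, *Clec10a* and *Irf4*, had an unadjusted p under 0.05. The median log2 fold change of the 9 was -0.01, and that of all genes tested was 0.00. CPM values of the 2 groups did not overlap for *Clec10a* and *Irf4*, whereas 32.8% of all tested genes showed no overlap.

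**Figure D1:**
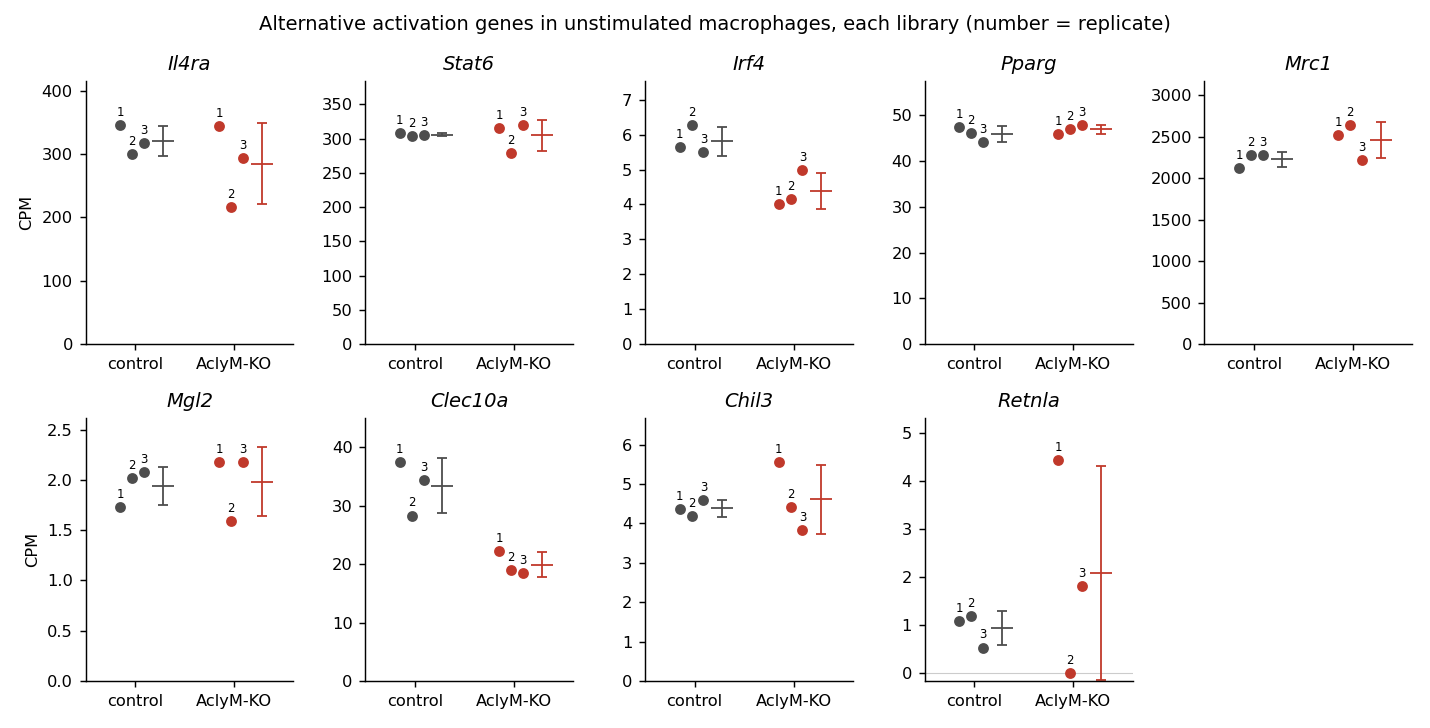
CPM of each alternative activation gene (y axis, starting at or just under 0) in the 3 control and 3 AclyM-KO libraries (points, numbered by replicate), with the mean and SD of each group as a bar beside the points. *Clec10a* and *Irf4* show no overlap between the groups, and *Retnla* shows wide scatter in AclyM-KO libraries.

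Levels per transcript length (RPKM, from the total over all transcripts) spanned a wide range. *Mrc1* was the most abundant, with a median of 242 RPKM over the 6 libraries (223 to 293), followed by *Stat6* at 46.3 (43.9 to 48.9), *Il4ra* at 33.5 (24.5 to 38.0), *Pparg* at 12.6 (11.9 to 13.2) and *Clec10a* at 9.69 (7.10 to 14.2). The remaining genes were far lower in RPKM. *Chil3* had a median of 1.66 (1.44 to 2.10), *Retnla* of 1.08 (0 to 4.30), *Mgl2* of 0.736 (0.595 to 0.796) and *Irf4* of 0.633 (0.488 to 0.748). Ranges of neighbours in this order overlapped for *Pparg* and *Clec10a* and for every neighbouring pair from *Chil3* down to *Irf4*, so the order within those pairs cannot be read from the ranges over 6 libraries. Ranges did not overlap between *Mrc1* and *Stat6*, *Stat6* and *Il4ra*, *Il4ra* and *Pparg*, or *Clec10a* and *Chil3*. Within AclyM-KO, *Pparg* lay above *Clec10a* in every library (12.6 to 13.2 against 7.10 to 8.64 RPKM). Within control, *Chil3* lay above *Retnla* in every library (1.54 to 1.71 against 0.518 to 1.13 RPKM). Both pairs overlapped in the other group. Classical IL-4-induced products (*Chil3*, *Retnla*) were thus at the low end, and the median RPKM of *Mrc1* was 7.24 times that of *Il4ra*.

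**Figure D2:**
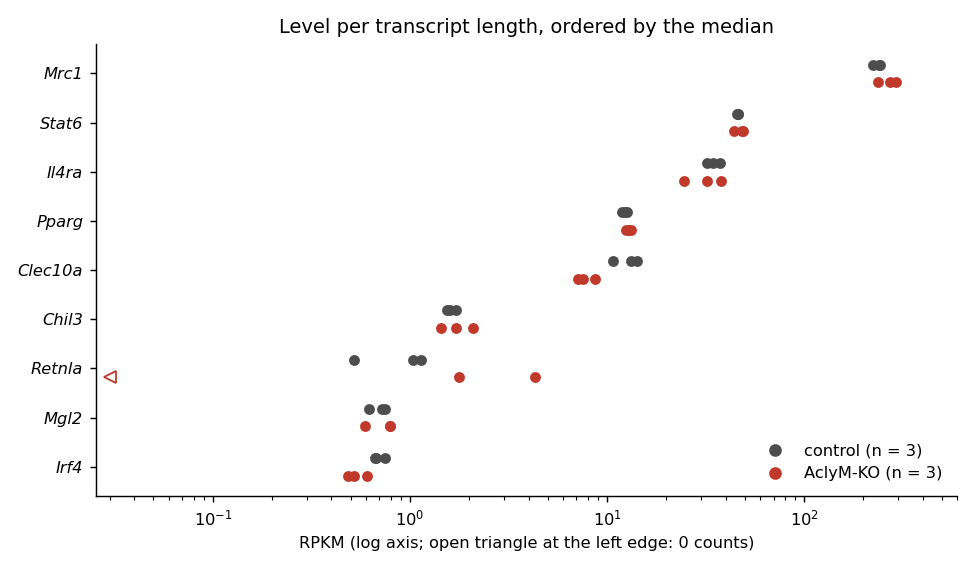
RPKM (log x axis) of the 9 genes, ordered by their median over 6 libraries, with 1 point per library in grey for control and red for AclyM-KO and an open triangle at the left edge for a library with 0 counts. *Mrc1* lies between 223 and 293 RPKM, and *Irf4* lies under 1 RPKM in every library.

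*Il4ra* encodes the IL-4 receptor α chain, shared by the IL-4 and IL-13 receptors (chr7:125552271-125579474, plus strand, 11 exons). It had 346, 299.7 and 317 CPM in control replicates 1, 2 and 3 and 344, 217 and 294 CPM in AclyM-KO replicates 1, 2 and 3. The groups overlapped, and AclyM-KO replicate 2 was the lowest of all libraries. Mean CPM was 321 ± 23.4 (SD, n = 3) in control and 285 ± 64.2 in AclyM-KO, with a log2 fold change of -0.17 (SE 0.132, 95% interval -0.46 to 0.12, adjusted p = 0.438 in edgeR's test). Its coefficient of variation was 7.28% in control and 22.5% in AclyM-KO libraries, and the median over all tested genes was 6.33% and 10.4%. The log2 fold change was -0.01 without AclyM-KO replicate 2 and -0.34 without AclyM-KO replicate 1 (edgeR adjusted p = 0.0919). An antisense gene, *Gm44876*, shares 571 exonic bases with *Il4ra* and is not in the count table, and the authors ran their counting tool at its default settings, without spelling out which strand these count.

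*Stat6*, the transcription factor that the receptor activates (chr10:127642955-127660987, plus strand, 22 exons), was at much the same level in both groups. It had 309, 304 and 305 CPM in control and 315, 279 and 320 CPM in AclyM-KO replicates 1, 2 and 3. The groups overlapped, with AclyM-KO libraries both above and below all controls. The log2 fold change was -0.01 (SE 0.069, 95% interval -0.16 to 0.14, adjusted p = 0.959), an interval that leaves out changes as large as that of *Clec10a*.

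*Irf4*, an interferon regulatory factor that acts downstream of IL-4 in macrophages (chr13:30749233-30766981, plus strand, 9 exons), was rare. Its counts were 62, 84 and 61 in control and 46, 110 and 57 in AclyM-KO replicates 1, 2 and 3, or 5.64, 6.28 and 5.5 against 4.0, 4.16 and 4.97 CPM. Every AclyM-KO library lay below every control library in CPM. Mean CPM was 5.81 ± 0.414 in control and 4.38 ± 0.521 in AclyM-KO (SD, n = 3), and the log2 fold change of -0.42 (SE 0.173, 95% interval -0.80 to -0.04) did not pass the threshold (edgeR adjusted p = 0.141, unadjusted 0.0324). It was not called in any of 15 alternatives, with values of -0.51 to -0.36.

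*Pparg*, the nuclear receptor PPARγ that ties alternative activation to lipid metabolism (chr6:115360879-115490404, plus strand, 8 exons), was the steadiest of the 9 genes across AclyM-KO libraries. It had 47.5, 46 and 44.1 CPM in control and 46, 47 and 47.9 CPM in AclyM-KO replicates 1, 2 and 3. The groups overlapped within a few CPM. The log2 fold change was 0.03 (SE 0.077, 95% interval -0.13 to 0.20, adjusted p = 0.824). The table lists 4 *Pparg* transcripts with totals of 3771 to 3949 counts, which share most of their exons, so that isoforms cannot be told apart from these counts.

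*Mrc1* encodes the mannose receptor CD206, an endocytic lectin and the usual surface marker of M2 macrophages (chr2:14229414-14332023, plus strand, 30 exons). Its level was 2121, 2284 and 2282 CPM in control and 2521, 2644 and 2217 CPM in AclyM-KO replicates 1, 2 and 3. AclyM-KO replicates 1 and 2 lay above all controls and replicate 3 lay among them. Mean CPM was 2229 ± 93.5 in control and 2461 ± 220 in AclyM-KO (SD, n = 3), with a log2 fold change of 0.14 (SE 0.077, 95% interval -0.02 to 0.31, adjusted p = 0.259). Across 15 alternatives the value stayed between 0.08 and 0.21 and was not called.

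*Clec10a* and *Mgl2* encode the galactose-type C-type lectins MGL1 and MGL2 (CD301a and CD301b), which bind terminal galactose and N-acetylgalactosamine on glycans. They lie beside each other on the plus strand of chromosome 11, *Mgl2* at chr11:70130125-70137542 and *Clec10a* at chr11:70166623-70170836, 29080 bases apart and with 10 exons each. *Clec10a* had 413, 379 and 382 counts in control and 256, 504 and 211 in AclyM-KO replicates 1, 2 and 3, the last group including the library of greatest depth. Scaled to depth, these were 37.6, 28.3 and 34.5 CPM in control and 22.3, 19.0 and 18.4 CPM in AclyM-KO. The highest AclyM-KO library was thus below the lowest control library. Mean CPM fell from 33.4 ± 4.70 to 19.9 ± 2.08 (SD, n = 3), to 59.5% of control, with a log2 fold change of -0.75 (SE 0.123, 95% interval -1.02 to -0.48, adjusted p = 0.0028 in edgeR's test). In bulk RNA, fewer cells that express a gene and less of its RNA per cell cannot be told apart. *Clec10a* was called in all 15 alternatives, with log2 fold changes of -0.86 to -0.66 and adjusted p-values of 7.70e-06 to 0.0222. The table lists 2 RefSeq transcripts of the gene, with 2145 and 2141 counts in total, which hold nearly the same reads and so cannot be told apart.

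*Mgl2*, the neighbouring gene, did not pass the test. It had 19, 27 and 23 counts in control and 25, 42 and 25 in AclyM-KO replicates 1, 2 and 3, or 1.73, 2.02 and 2.08 against 2.18, 1.59 and 2.18 CPM. The groups overlapped fully, AclyM-KO replicate 2 being the lowest of the 6 and the other two AclyM-KO libraries the highest. The log2 fold change was -0.02 (SE 0.257, adjusted p = 0.971), with a wide 95% interval of -0.58 to 0.54 that overlaps the interval of *Clec10a* in part, and the difference between the 2 genes was not itself tested. Of the 50-base windows of the *Clec10a* transcript, 16.7% also occur in *Mgl2*, and reads from such windows can be lost to the authors' filter on mapping quality. The whole *Mgl2* total of 161 counts is small beside the 2145 of *Clec10a*.

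Some dendritic cells express both lectins, and dendritic cell markers were therefore examined beside *Clec10a*. The summed CPM of 8 such markers was 9.65 to 10.9 in control and 7.44 to 12.5 in AclyM-KO libraries, most of it from *Kmo*, and the other 7 were too low to be tested. Among 8 eosinophil, mast cell and basophil markers *Kit* rose (9.85 to 20.4 mean CPM, log2 fold change 1.07, adjusted p = 0.000505), while *Epx*, *Il5ra* and *Fcer1a* had 0 counts in every library. Of 5 monocyte markers 1 was called, and the list had a summed level of 14.4 to 16.4 CPM in control and 14.6 to 16.1 CPM in AclyM-KO libraries. Neutrophil markers summed to 27.5 to 31.1 and 28.7 to 30.4 CPM, stromal markers to 1.17 to 2.91 and 1.13 to 2.12 CPM, and lymphoid markers to no more than 0.436 CPM. Of these 3 lists, 4 of 8 neutrophil, 1 of 7 stromal and 0 of 7 lymphoid genes had enough counts to be tested. None of the tested ones was called, and the lymphoid list could hold no call. Of 10 proliferation genes 9 were called higher, with a summed level over the list of 588 to 682 CPM in control and 811 to 1154 CPM in AclyM-KO libraries. The part of any of these genes in the difference in *Clec10a* was not tested.

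The 3 genes whose centred log2 CPM was closest to *Clec10a* over the 6 libraries were *Slc7a2*, *Nicn1* and *Axl*, with root mean square differences of 0.044, 0.074 and 0.090. *Slc7a2*, a transporter of arginine and other cationic amino acids, had 5.64, 4.48 and 4.96 CPM in control and 3.22, 2.76 and 2.70 CPM in AclyM-KO replicates 1, 2 and 3. Like *Clec10a*, it was lowest in replicate 2 among controls and highest in replicate 1 in either group. *Axl*, a receptor tyrosine kinase that takes part in clearing apoptotic cells, had 57.2 to 69.0 CPM in control and 40.6 to 45.4 CPM in AclyM-KO. This likeness describes 6 libraries and includes the difference between the groups, so genes that fell by a like amount come first.

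*Chil3* encodes Ym1, a secreted chitinase-like protein (chr3:106147554-106167564, minus strand, 11 exons). Its counts were 48, 56 and 51 in control and 64, 117 and 44 in AclyM-KO replicates 1, 2 and 3, or 4.37, 4.19 and 4.6 against 5.57, 4.42 and 3.84 CPM. The highest and the lowest library were both AclyM-KO, with the controls in between. The log2 fold change was 0.07 (SE 0.192, 95% interval -0.35 to 0.49, adjusted p = 0.862). Its closest copy *Chil4* (Ym2), which shares 18.5% of the 50-base windows of *Chil3*, had 0 counts in all libraries.

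*Retnla* encodes RELMα (also called Fizz1), a small secreted protein (chr16:48842609-48844461, plus strand, 4 exons), and differed widely among AclyM-KO libraries. It had 12, 16 and 6 counts in control and 51, 0 and 21 in AclyM-KO replicates 1, 2 and 3. In CPM these were 1.09, 1.2 and 0.541 in control and 4.44, 0 and 1.83 in AclyM-KO, where the count of 0 in the deepest library allows up to 0.113 CPM (3 counts, counting error only). AclyM-KO replicates 1 and 3 thus lay above all controls and replicate 2 lay below all of them. Mean CPM was 0.943 ± 0.352 in control and 2.09 ± 2.23 in AclyM-KO (SD, n = 3), and the log2 fold change of 0.86 (SE 0.971, 95% interval -1.26 to 2.99) had an adjusted p of 0.618 in edgeR's test. This value changed most when AclyM-KO replicate 1 or 2 was removed. It was 1.70 without AclyM-KO replicate 2 (edgeR adjusted p = 0.00607) and -0.61 without AclyM-KO replicate 1 (adjusted p = 0.739).

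**Figure D3:**
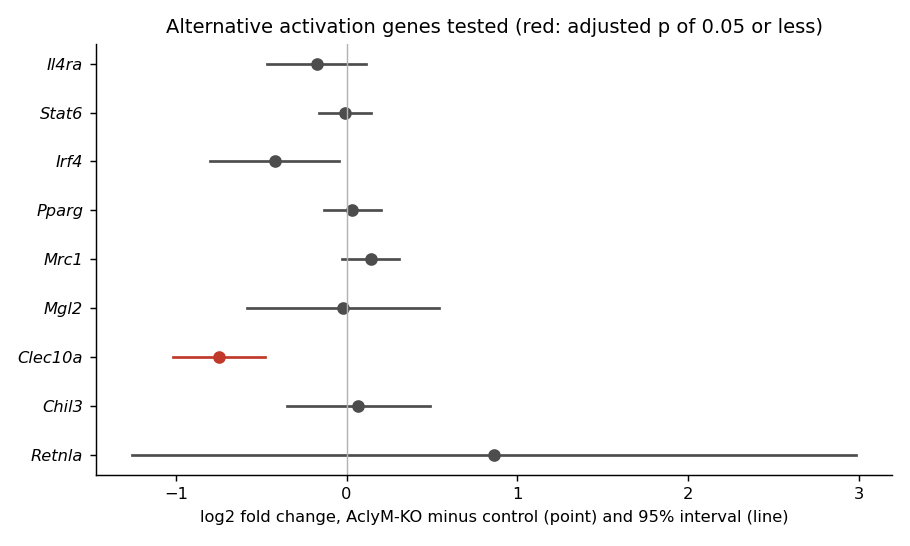
Log2 fold change of the 9 tested genes (x axis, AclyM-KO minus control) with its 95% interval from edgeR's fit as a line, in red for an adjusted p of 0.05 or less. Only the interval of *Clec10a*, -1.02 to -0.48, belongs to a called gene, and that of *Retnla*, -1.26 to 2.99, is the widest.

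**Figure D4:**
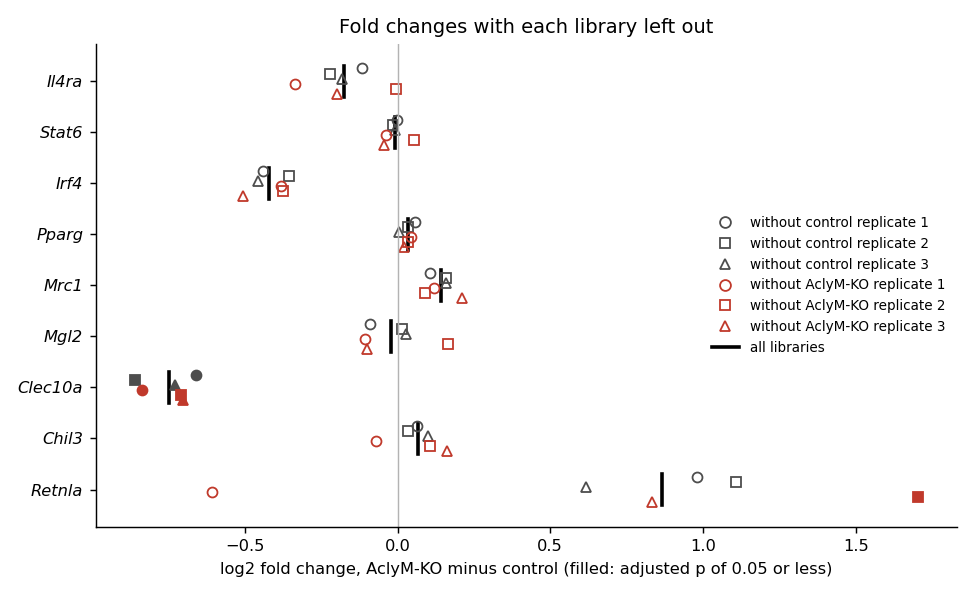
Log2 fold change of the 9 tested genes with all 6 libraries (black bar) and with 1 library removed at a time (grey for a control, red for an AclyM-KO library, filled where the adjusted p was 0.05 or less). *Clec10a* stays between -0.86 and -0.66, whereas *Retnla* moves from -0.61 to 1.70.

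The secreted markers *Retnla* and *Chil3* shared their highest library but not their lowest. AclyM-KO replicate 1 had the highest CPM of *Retnla* and *Chil3* of all 6 libraries, and also of the IL-4-induced ligand *Pdcd1lg2* (PD-L2), which had 0, 4 and 0 counts in control and 12, 2 and 4 in AclyM-KO replicates 1, 2 and 3. AclyM-KO replicate 2 had the lowest CPM of *Retnla*, *Il4ra*, *Stat6* and *Mgl2* but the highest of *Mrc1* (2644 CPM). *Chil3* was lowest in AclyM-KO replicate 3 (3.84 CPM). These genes were singled out after their values were seen. The coefficient of variation within AclyM-KO libraries was 107% for *Retnla* and 19.1% for *Chil3*, against 2.06% for *Pparg* and 8.94% for *Mrc1*. AclyM-KO replicate 2 was also the deepest library, and after its counts were thinned to the mean total of the others *Retnla* had a log2 fold change of 1.11 and was not called.

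To place these genes in their pathway, 19 genes of IL-4 and IL-13 signalling were examined, of which 15 could be tested and 1 was called. This was *Il13ra1*, the chain that pairs with the IL-4 receptor α chain in the type II receptor. It had 18.2, 17.1 and 19.3 CPM in control and 14.1, 10.2 and 10.3 CPM in AclyM-KO replicates 1, 2 and 3, all AclyM-KO libraries lying below all controls. The log2 fold change was -0.67 (SE 0.141, adjusted p = 0.0103), and the call was lost without control replicate 3 (adjusted p = 0.0579). *Il2rg*, the common γ chain of the type I receptor, had 163 ± 2.53 CPM in control and 155 ± 7.38 CPM in AclyM-KO (SD, n = 3; log2 fold change -0.07, adjusted p = 0.514). The ligands were near or at 0, with 1, 1 and 1 counts of *Il4* in control and 0, 3 and 0 in AclyM-KO, and 0 counts of *Il13* in every library. *Jak1* (-0.20, adjusted p = 0.0515) and *Jak3* (-0.37, adjusted p = 0.0516), kinases bound to these receptors and named here after their values were seen, lay just outside the threshold. The number of called genes on this list depended on the method, with 4 in DESeq2, in limma-voom and without AclyM-KO replicate 1 or 2, and none without control replicate 3. The share called was 6.67%, against 12.3% of all genes, and the median log2 fold change of the tested genes was -0.11, against 0.00.

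Of 17 regulators of alternative activation, all were tested and 3 were called (17.6%, against 12.3% of all genes), 1 higher and 2 lower, with a median of -0.03. The count was 8 without AclyM-KO replicate 1 and 6 without AclyM-KO replicate 2. *Klf4*, a zinc finger factor that cooperates with STAT6, rose from 4.36 ± 1.28 to 10.2 ± 0.641 CPM (SD, n = 3; log2 fold change 1.21, SE 0.192, adjusted p = 0.00232). *Kdm6b*, a demethylase of lysine 27 on histone H3 that is also induced by LPS, fell from 28.5 ± 1.04 to 13.2 ± 4.4 CPM (log2 fold change -1.16, SE 0.200, adjusted p = 0.00379). Groups overlapped for neither of these genes, and both were called in all 15 alternatives. The remaining 14 of the 17 did not pass, among them *Stat6*, *Irf4* and *Pparg*, which belong to this list too.

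The 28 genes listed here as other IL-4-induced genes, some of them tied to M2 macrophages more broadly, split by detection. In 12 of them the counts were too low to be tested, among them *Pdcd1lg2*, *Ccl17*, *Ccl22*, *Cdh1*, *Alox15* and *Chil4*, and 10 of the 16 tested were called (62.5%, against 12.3% of all genes), 5 in each direction, with a median of 0.12. The count was 4 without control replicate 1 and 5 without control replicate 3. This list was chosen with earlier results of these data known, so its share describes the list and tests no enrichment. *Tfrc*, the transferrin receptor, rose from 511 ± 14.9 to 931 ± 98.9 CPM (log2 fold change 0.87, adjusted p = 5.39e-05), and *Il1rn*, the IL-1 receptor antagonist, from 38.9 ± 2.35 to 77.9 ± 21 CPM (1.01, adjusted p = 0.00186). *Mmp12*, *Fn1* and *Igf1* rose by 0.81, 1.02 and 0.24 on the log2 scale. AclyM-KO replicate 2 had the highest CPM of each of these 5 genes, for *Mmp12* 741 CPM against 389 and 465 in AclyM-KO replicates 1 and 3, and the other AclyM-KO libraries also lay above all controls. *Tgm2*, a transglutaminase used as an M2 marker in mouse and human, fell from 288 ± 12.9 to 187 ± 6.55 CPM (log2 fold change -0.62, adjusted p = 0.000161), and *Clec7a*, the β-glucan receptor dectin-1, from 343 ± 17.4 to 248 ± 15.9 CPM (-0.47, adjusted p = 0.00186). *F13a1*, *Slc7a2* and *Atp6v0d2* fell, with log2 fold changes of -0.75, -0.80 and -0.27. *Tfrc*, *Il1rn*, *Tgm2* and *Clec7a* were called in all 15 alternatives, whereas *Fn1* was called in 9, *Atp6v0d2* in 10, *Igf1* in 11, *Mmp12* and *Slc7a2* in 12 and *F13a1* in 14. *Ccl24*, an eosinophil-attracting chemokine, had 6, 6 and 1 counts in control and 10, 27 and 15 in AclyM-KO and did not pass (1.51, adjusted p = 0.0616). Most of these genes also respond to stimuli other than IL-4, and *Tfrc*, for one, is known to be high in dividing cells.

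**Figure D5:**
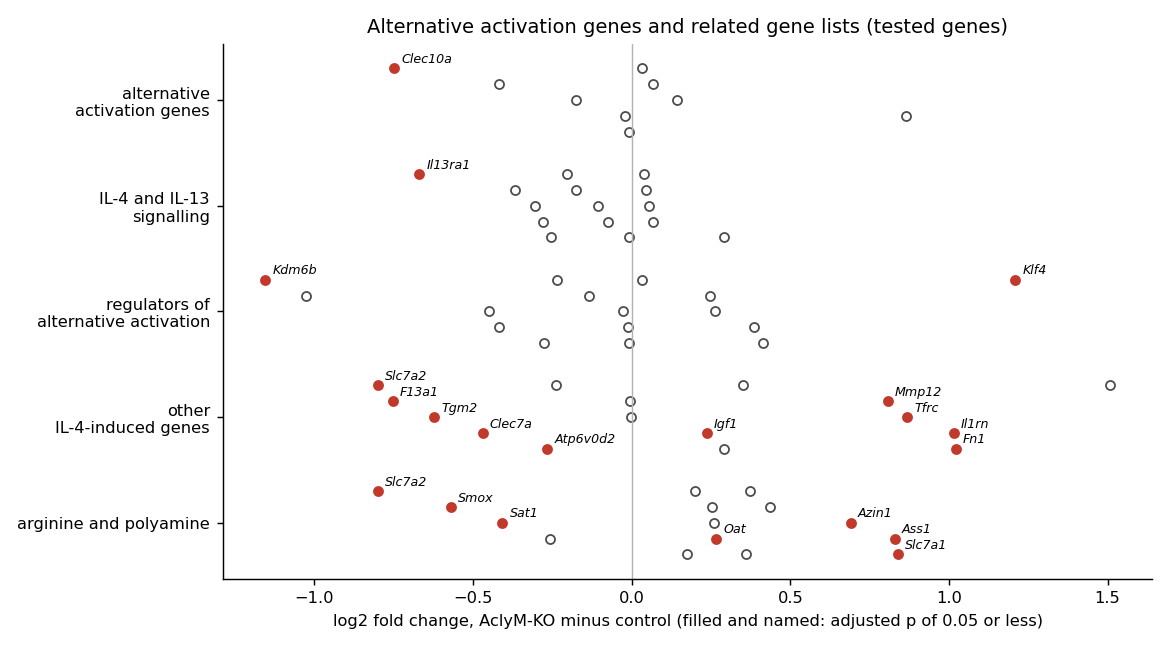
Log2 fold changes (x axis, AclyM-KO minus control) of the tested alternative activation genes and of the tested genes of 4 related lists, 1 circle per gene, filled and named where the adjusted p was 0.05 or less. *Stat6*, *Irf4*, *Pparg*, *Il4ra* and *Slc7a2* appear in more than one row, and the 10 called genes of the other IL-4-induced list fall on both sides of 0, genes not reported here being left out.

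Because alternative activation is known to redirect the use of arginine, 19 genes of arginine and polyamine metabolism were examined, of which 16 were tested and 7 were called (43.8%, against 12.3% of all genes), 4 higher and 3 lower, with a median of 0.26. The count was 4 without control replicate 1. This list, too, was chosen with earlier results known, and it shares *Slc7a2* with the list before, so its share tests no enrichment. *Nos2*, which makes nitric oxide from arginine, was not tested at 3, 7 and 3 counts in control and 7, 4 and 5 in AclyM-KO. The arginine transporters moved apart, *Slc7a1* rising from 38.1 ± 8.19 to 67.6 ± 20.2 CPM (0.84, adjusted p = 0.0165) and *Slc7a2* falling from 5.03 ± 0.580 to 2.89 ± 0.284 CPM (-0.80, adjusted p = 0.0195; SD, n = 3). *Ass1*, which makes the precursor of arginine from citrulline, rose from 6.70 ± 0.334 to 11.9 ± 1.40 CPM (0.83, adjusted p = 0.00370). *Azin1*, an inhibitor of the antizymes that degrade ornithine decarboxylase, rose by 0.69, and *Oat*, ornithine aminotransferase, by 0.27 on the log2 scale. AclyM-KO replicate 2 was again the highest for *Slc7a1* (90.7 CPM against 53.7 and 58.3 in AclyM-KO replicates 1 and 3) and *Azin1* (418 against 294 and 289 CPM). *Odc1*, ornithine decarboxylase itself, did not pass (0.26, adjusted p = 0.367), at 21.8 ± 0.903 and 25.7 ± 7.67 CPM. The polyamine catabolic enzymes *Sat1* (-0.41, adjusted p = 0.00482) and *Smox* (-0.57, adjusted p = 0.00480) both fell. *Ass1*, *Azin1*, *Sat1* and *Smox* were called in all 15 alternatives, *Slc7a1* in 13 and *Oat* in 10. Proliferation genes were higher in the same libraries, as given above, and their part in the differences of this list and the one before was not tested.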

How the data were processed

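Libraries of 3 control and 3 AclyM-KO samples of unstimulated BMDMs were prepared with a KAPA mRNA HyperPrep kit. Per the submitters' processing notes, CASAVA 1.8.2 and STAR 2.5.2b were used with the mouse genome mm10. The authors filtered alignments on mapping quality, counted reads per RefSeq transcript with HOMER, and deposited these raw counts without normalization or pooling. Of 12 value columns, 6 matched these samples and 6 were not used here. The counting was run at default settings on strand-specific libraries, and the RefSeq release is not given in the sources used here.

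The 35745 transcripts were named from a RefSeq gene table (35440) and GENCODE M21 (188), 117 had no symbol, and each gene was represented by its transcript of highest total, for 24562 symbols, 6089 of which had several. A read on a shared exon can be counted for several transcripts. Total counts were 19426802, 23582992 and 19327459 in control and 19797218, 44507233 and 19867137 in AclyM-KO replicates 1, 2 and 3.

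AclyM-KO was set against control by the quasi-likelihood test of edgeR 4.0.16 in R 4.3.3, with genotype alone in the model, TMM scaling and filterByExpr. A prior count of 2 was used only for log2 CPM in the search for similar profiles and in the deviations of same-numbered libraries. P-values were adjusted over 11470 genes (Benjamini-Hochberg), and a gene was called at 0.05 or less. The biological coefficient of variation was 8.90%. As alternatives, other tools (DESeq2 1.42.0, and limma-voom of limma 3.58.1 with weights for samples), other scalings (RLE, or totals alone), other filters (none, or a minimum of 10 counts per library), a block for the replicate number, removal of 1 library at a time, a fit of all transcripts, thinning of AclyM-KO replicate 2 to 11753905 counts, and stricter calls (an adjusted p of 0.01, or a log2 fold change of 1 or more in size) were run. The last 2 apply to counts of genes only, which leaves 15 for a single gene. Standard errors and 95% intervals follow from the quasi-likelihood F statistic. On simulated counts with 200 genes changed by 1 on the log2 scale, 175 (87.5%) were recovered among 11388 genes tested, and 4.89% of 184 calls were false.

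The 10 genes and the related lists were chosen with earlier results of these data known. Named are the 10 genes, *Acly*, every called gene of the 4 related lists, chosen ligand, receptor and partner genes of those lists, marker genes at the extremes of their lists, and the 3 genes closest to each called alternative activation gene. The older symbol *Ear11* was matched to *Rnase2a*. Positions come from the GRCm38 annotation, the same build as mm10, and promoter windows from RefSeq. The IL-4-stimulated macrophages and other assays of the study were not analysed here. Genes withheld from this text are not reported by name but remain in the numbers of genes tested and called.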

Additional observations from a re-analysis of the deposited data

How the results depend on the processing

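*Clec10a* was called lower in all 15 alternatives run on single genes, and *Irf4*, *Mrc1*, *Pparg* and *Il4ra* kept their direction and stayed outside the threshold in all 15. Over all genes, 1416 were called, and 2187 with limma-voom, 2446 (of 18933 transcripts) with all transcripts, 557 at an adjusted p of 0.01, 198 when a log2 fold change of 1 or more in size was required, and 598 to 2136 with a library left out. Of the 10 genes, 0 were called under that fold limit, and 1 to 2 with a library left out, the second being *Retnla* without AclyM-KO replicate 2. Called IL-4 and IL-13 signalling genes numbered 4 in DESeq2 and limma-voom, 3 with no filter and with all transcripts, 2 after thinning, 0 at 0.01 and 0 under the fold limit, and 0 to 4 with a library left out (0 without control replicate 3, 4 without AclyM-KO replicate 1 or 2). Called regulators numbered 5 in DESeq2, 6 with no filter and in limma-voom, and 3 to 8 with a library left out, with 8 and 6 without AclyM-KO replicates 1 and 2. Other IL-4-induced genes numbered 4 at 0.01, 2 under the fold limit, and 4 to 10 with a library left out, with 4 and 5 without control replicates 1 and 3. Arginine and polyamine genes numbered 4 at 0.01, 0 under the fold limit, and 4 to 8 with a library left out, with 4 without control replicate 1. Values near 0 changed sign, namely *Stat6* with total counts (0.027), limma-voom (0.041) and a library left out (-0.045 to 0.055), *Mgl2* with DESeq2 (0.0010), total counts (0.017), limma-voom (0.10) and a library left out (-0.11 to 0.17), and *Chil3* with a library left out (-0.071 to 0.16). *Retnla* ranged from -0.61 to 1.70 with a library left out. It had no value with at least 10 counts in every library. The cause of these changes was not tested, apart from those that follow from fewer libraries or a stricter threshold.

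The groups share replicate numbers, but deviations of same-numbered libraries correlated by 0.09, 0.11 and -0.05, so the numbers were not taken to pair them. With the number as a block, 1583 genes were called, *Clec10a* had an adjusted p of 0.0006, and called genes numbered 1 of the 10, 3 of IL-4 and IL-13 signalling, 6 regulators, 11 other IL-4-induced and 7 arginine and polyamine genes.

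Counts of *Retnla*, *Mgl2* and *Irf4* were low and their intervals wide, and intervals and floors cover these 6 libraries only.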
